A study of Mus musculus with 312 samples.

Results

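Integrins are receptors of the cell surface in which 1 alpha and 1 beta subunit are joined, and they tie the cytoskeleton of a cell to the matrix around it. Basal cells of the mammary gland rest on a basement membrane that is rich in laminin, and they hold on to it through integrins both at focal adhesions, which join actin, and at hemidesmosomes, which join keratin. Transcripts of 10 subunits were followed in single basal cells. They comprised 6 alpha subunits (Itga1, Itga2, Itga3, Itga6, Itga9 and Itgav) and 4 beta subunits (Itgb1, Itgb4, Itgb5 and Itgb6), chosen by name from 25136 genes used. Itgb1 is the common partner of many alpha subunits. Itga3 and Itga6 bind laminin, and Itga1 and Itga2 bind collagen. Itgav, which among these 4 beta subunits pairs with Itgb1, Itgb5 or Itgb6, binds matrix proteins such as vitronectin and fibronectin. Itgb4 pairs with Itga6 and anchors the hemidesmosome.

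The data were counts of read pairs in 312 cells captured with a Fluidigm C1 system, which holds each cell in a chamber of its own for cDNA synthesis. All cells were taken from mammary glands of the FVB/NJ mouse strain, with no genetic change or treatment, and were labelled basal. Adult cells fell into 112 whose titles carry the mark (2) and 125 without it, called the marked and the unmarked set here, and 75 cells came from pregnancy. Neither the mark, the animals, the adult age nor the day of pregnancy is given in the labels. The text of the study does give an age and a number of mice for its adult basal cells. In the study adult basal cells were sorted as CD29-high and CD24-positive, and CD29 is the protein encoded by Itgb1, so the gate acts on one of the subunits described. The study reports its C1 pregnancy cells to be total epithelial cells of mid-pregnancy, and gives their day and number of mice. Whether the cells deposited with a basal label are among those was not established, and their basal sort rests on the label. Each set was treated as 1 sample with no replicates, and no test was made. Intervals are exact, at 95%, and cover counting error only. The titles of the pregnancy cells take 1 form, and the stage cannot be told apart from the capture run.

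Retained were cells with 1000 detected genes or more and at least 50000 assigned reads, 81 of the marked, 58 of the unmarked and 71 of the pregnancy set. Levels are in CPM, reads per 1e+06 assigned reads of the same cell, and 1 read was worth 5.72, 9.87 and 4.34 CPM at the median depth of the 3 sets. At least 6 of 11 core basal genes reached 100 CPM in 76, 51 and 70 retained cells, so that most cells of each set carried the basal markers. At least 3 of 7 pan-luminal genes did so in 4, 3 and 1 cells, at least 3 of 8 immune genes in 1, 0 and 0, and at least 3 of 8 endothelial genes in 0, 2 and 0. For the 8 fibroblast genes these counts were 0, 3 and 3, but their summed level moved with the sets. Its median was 4.22 CPM in marked cells (range 0 to 3262 CPM, with Lum and Dpt at 0), 28.8 CPM in unmarked cells (range 0 to 39480 CPM) and 561 CPM in pregnancy (range 55.2 to 5782 CPM). The median mitochondrial share of reads was also unequal, 9.65%, 15.6% and 18.4%. After each cell had been thinned to 50000 reads, a median of 2313, 2210.5 and 3220 genes was detected. The part of these differences in the levels and shares below was not tested. How many of all genes had a pregnancy interval clear of both adult ones was not counted. Gaps between intervals below therefore stand without that background.

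The subunits separated into a broadly expressed and a sparse group. Itga6, Itgb1 and Itgav were found in most cells of every set, Itga3 in about as many cells as lacked it, and Itga1, Itga2, Itga9, Itgb4, Itgb5 and Itgb6 in a minority of adult cells. In pregnancy the 3 broad subunits were detected in nearly every cell, and their lower quartiles lay above those of both adult sets. Itgb4 and Itgb5 had the opposite pattern, with their lowest means in pregnancy. A median of 4 of the 10 subunits was detected per thinned cell in either adult set and of 5 in pregnancy.

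**Figure D1:**
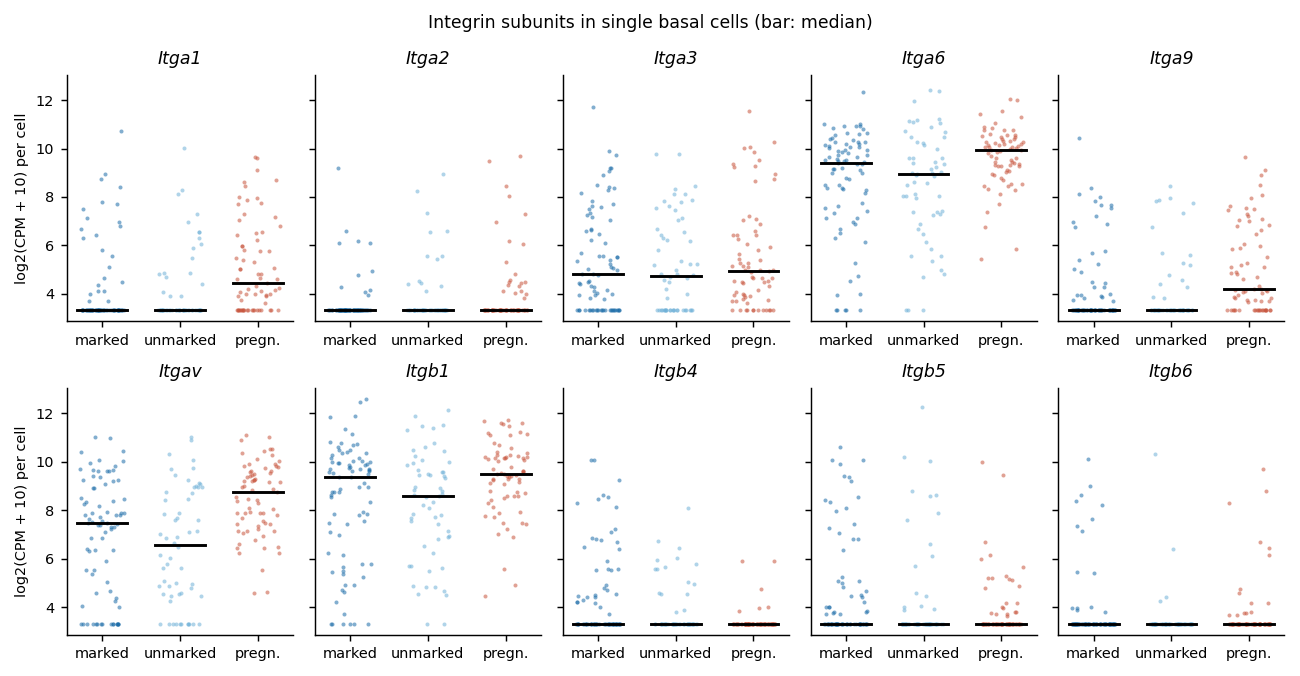
Level of each subunit in single cells, as log2 of CPM plus 10, for the marked adult, unmarked adult and pregnancy cells; each point is 1 retained cell and each bar is the median of a set. Itga6, Itgav and Itgb1 form clouds well above the floor with no pregnancy cell at 0 reads, whereas most points of Itga2, Itgb4, Itgb5 and Itgb6 lie on the floor.

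Itgb1 (Entrez 16412), which the files count over the exons of a gene at chr8:128685654-128733579 on the plus strand of GRCm38, was the most abundant beta subunit. Its level had a median of 648 CPM in marked cells (range 0 to 6174 CPM), 380 CPM in unmarked cells (range 0 to 4478 CPM) and 715 CPM in pregnancy (range 12.3 to 3433 CPM). The highest unmarked cell had 0 of the 11 core basal genes at 100 CPM. The ranges overlapped, and in proportion the difference was largest among the low cells. The lower quartile was 66.2 and 103 CPM in the adult sets and 372 CPM in pregnancy, while the upper quartile was 1037, 886 and 1202 CPM. Cells at 100 CPM or more made up 74.1% (60 of 81, interval 63.1 to 83.2%) and 75.9% (44 of 58, interval 62.8 to 86.1%) in adult and 95.8% (68 of 71, interval 88.1 to 99.1%) in pregnancy. The pregnancy interval overlapped neither adult interval. At equal depth, with 1 read enough for detection, the shares were 88.9%, 94.8% and 98.6%, and the pregnancy interval (92.4 to 100.0%) then overlapped both adult ones. The means were 843, 733 and 999.7 CPM, a log2 ratio of 0.24 for pregnancy over the marked set and 0.44 over the unmarked set. Only adult cells had 0 reads of Itgb1, 6 marked and 2 unmarked, and each of these 8 cells had at least 6 core basal genes.

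Itga6 (Entrez 16403, chr2:71786886-71858427, plus strand) encodes the alpha subunit shared by the laminin receptors with Itgb1 and with Itgb4. Marked cells ranged from 0 to 5224 CPM with a median of 662, unmarked cells from 0 to 5491 CPM with a median of 478, and the pregnancy set from 32.7 to 4212 CPM, median 965. The sets overlapped over most of their range. As for Itgb1, the lower quartiles were farther apart (175, 145 and 539 CPM) than the upper ones (1137, 1173 and 1331 CPM). At least 100 CPM was present in 82.7%, 77.6% and 95.8% of cells, with intervals of 72.7 to 90.2%, 64.7 to 87.5% and 88.1 to 99.1%, so that the pregnancy and marked intervals overlapped. The mean was 1069 CPM in pregnancy against 775 and 873 CPM, or log2 ratios of 0.46 and 0.29. Cells without a read numbered 5, 3 and 0, and 2 of the 5 and 1 of the 3 had fewer than 6 core basal genes.

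Itga3 (Entrez 16400, chr11:95044475-95076844, minus strand), the alpha subunit of another laminin receptor, did not share this pattern. Its medians were close together, 18.0 CPM in marked, 16.7 in unmarked and 20.6 in pregnancy cells, and it reached 100 CPM in 25.9%, 24.1% and 22.5% of cells. Its mean, 141, 88.2 and 179 CPM, was set by few cells, since the highest cell held 29.3%, 16.9% and 23.6% of the sum of its set. The log2 ratio was 0.33 for pregnancy over marked and 0.94 over unmarked cells, without a difference in the share of cells beyond the intervals.

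Itgb4 (Entrez 192897, chr11:115974725-116008412, plus strand) was nearly missing from pregnancy cells. It ranged from 0 to 1085 CPM in marked cells, from 0 to 264 CPM in unmarked cells and from 0 to 50.6 CPM in pregnancy cells, with a median of 0 in each set. All the retained cells together gave 1219, 72 and 24 reads of Itgb4. At 100 CPM it was found in 12 of 81 marked cells (14.8%, interval 7.90 to 24.4%), in 1 of 58 unmarked cells (1.72%, interval 0.0436 to 9.24%) and in 0 of 71 in pregnancy, where a count of 0 allows up to 4.23%. At equal depth a read was present in 35.8% (interval 25.4 to 47.2%), 22.4% (interval 12.5 to 35.3%) and 7.04% (interval 2.33 to 15.7%) of cells. Pregnancy thus lay apart from the marked set, whereas its interval overlapped that of the unmarked set. The means were 69.2, 13.8 and 1.86 CPM, 37.2-fold lower in pregnancy than in marked and 7.41-fold lower than in unmarked cells without a pseudocount. The adult sets themselves were 5.02-fold apart, so that the size of the difference depended on the adult set chosen. With the pseudocount of 10 CPM the log2 ratios were -2.74 and -1.004. All 12 marked cells and the 1 unmarked cell at 100 CPM had at least 6 core basal genes. In GENCODE M21 Itgb4 shares 537 exon bases with B230344G16Rik on the opposite strand. It is not stated whether counting used the strand. Whether the annotation used for counting holds B230344G16Rik was not checked, so reads there may not be assignable to either gene.

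The other hemidesmosome components were counted beside Itgb4. They were Plec and Dst, which encode the plakin linkers to keratin, Col17a1, a collagen that spans the membrane, and Cd151, a tetraspanin that binds laminin-binding integrins. Of these 4 genes, 1 was at least 2-fold lower in pregnancy than in both adult sets, as were 5.95% of the 5197 genes with a mean of 50 CPM or more in a set, and 0 were at least 2-fold higher, as were 8.81%. The 1 was Cd151, with means of 165, 221 and 51.8 CPM and log2 ratios of -1.50 and -1.90. Dst had means of 1572, 1089 and 634 CPM and log2 ratios of -1.30 and -0.77. Col17a1 had ratios of -0.45 and -0.52. Plec was on opposite sides of the adult sets, with ratios of -0.55 and 0.56. The median over the list was -0.92 and -0.64, beside 0.05 and 0.03 over the 5197 genes.

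**Figure D2:**
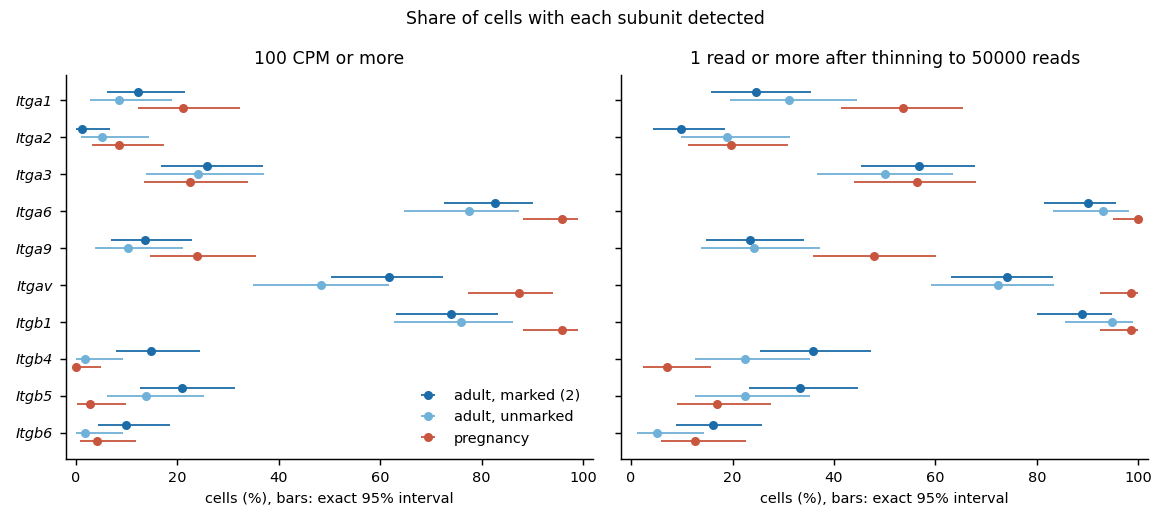
Share of retained cells with each subunit at 100 CPM or more (left) and with at least 1 read after thinning to 50000 reads (right); points are the marked adult, unmarked adult and pregnancy sets and bars are exact 95% intervals. Pregnancy lies above both adult intervals for Itgav, at 87.3% and 98.6%, and has its lowest shares for Itgb4, at 0% and 7.04%.

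Itgav (Entrez 16410, chr2:83722303-83806917, plus strand) differed most between pregnancy and adult among the broadly expressed subunits. Its median was 166 CPM in marked cells (range 0 to 2075 CPM), 84.9 CPM in unmarked cells (range 0 to 2066 CPM) and 426 CPM in pregnancy (range 13.6 to 2211 CPM). The highest cells of the 3 sets were alike, while the lower quartile was 13.8, 13.4 and 163 CPM and the upper quartile 476, 421 and 765 CPM. At 500 CPM or more stood 24.7%, 19.0% and 45.1% of cells, so the difference was not confined to low cells. It reached 100 CPM in 61.7% (interval 50.3 to 72.3%), 48.3% (interval 35.0 to 61.8%) and 87.3% (interval 77.3 to 94.0%) of cells, and pregnancy overlapped neither adult interval. At equal depth the shares were 74.1% (interval 63.1 to 83.2%), 72.4% (interval 59.1 to 83.3%) and 98.6% (interval 92.4 to 100.0%), again without overlap. Thinned pregnancy cells also had more genes detected in general, a median of 3220 against 2313 and 2210.5. The share of all genes without overlap was not counted. Itgav had 0 reads in 16 marked, 11 unmarked and 0 pregnancy cells, and 1 of the 16 and 2 of the 11 had fewer than 6 core basal genes. Its means were 328, 277 and 547 CPM, or log2 ratios of 0.72 and 0.96. An exon overlap of 634 bases with Gm13684 on the opposite strand may limit Itgav, with the same open points as for Itgb4.

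Itgb5 (Entrez 16419, chr16:33829665-33949338, plus strand), a partner of Itgav, was lower in pregnancy by its mean but had 0 reads in most cells of every set. It ranged from 0 to 1555 CPM in marked, from 0 to 4961 CPM in unmarked and from 0 to 996 CPM in pregnancy cells, with medians of 0. It reached 100 CPM in 17 of 81 (21.0%, interval 12.7 to 31.5%), 8 of 58 (13.8%, interval 6.15 to 25.4%) and 2 of 71 cells (2.82%, interval 0.343 to 9.81%). The pregnancy interval lay below the marked one and overlapped the unmarked one. With 1 read enough at equal depth the shares were 33.3%, 22.4% and 16.9%, in the same order, and all 3 intervals overlapped. The means were 111, 155 and 30.2 CPM, and the log2 ratios were -1.59 and -2.04. A single cell held 55.1% of the unmarked sum. Without the highest cell of each set the means were 92.8, 70.9 and 16.4 CPM and the ratios -1.96 and -1.62. Without the cells over 20% mitochondrial reads, a choice made after seeing the data that left 70, 38 and 41 cells, they were -1.92 and -0.99.

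Itgb6, another partner of Itgav, was sparse, with 15, 4 and 15 cells holding any read. Its means of 39.0, 23.5 and 26.2 CPM did not reach the 50 CPM required for a call. Of its unmarked sum, 93.0% came from 1 cell, which had 0 of the 11 core basal genes at 100 CPM. The log2 ratio of 0.11 for Itgb6 over unmarked cells rested on that cell. It was 1.09 without the highest cell of each set.

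Promoter windows of 250 bases before a RefSeq start in GRCm38.p6 matched 8 of the 10 subunits. Those of Itgb1 and Itgav, which were broad in pregnancy, and of Itgb5, whose own mean was lowest there, are shown to compare their letters. Itgb1 lies at chr8:128685404-128685653, Itgav at chr2:83724147-83724396 and Itgb5 at chr16:33829415-33829664, each on the plus strand. The windows of Itgb1 and Itgb5 end just before the gene starts given above. The Itgav window lies inside the span given above, which starts at chr2:83722303, so its letters are not upstream of that start. Capitals mark GC boxes (GGGCGG on either strand) and the TEAD motif (GGAATG).
Itgb1: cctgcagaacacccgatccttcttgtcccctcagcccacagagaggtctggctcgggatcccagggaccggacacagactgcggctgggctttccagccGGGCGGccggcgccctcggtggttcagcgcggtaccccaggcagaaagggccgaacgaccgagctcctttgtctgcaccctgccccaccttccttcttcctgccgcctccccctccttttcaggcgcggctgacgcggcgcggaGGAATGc
Itgav: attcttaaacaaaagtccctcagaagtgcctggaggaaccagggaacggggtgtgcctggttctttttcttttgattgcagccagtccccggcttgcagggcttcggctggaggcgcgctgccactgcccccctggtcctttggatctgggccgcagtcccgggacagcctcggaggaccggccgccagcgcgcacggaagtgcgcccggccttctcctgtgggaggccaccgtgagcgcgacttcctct
Itgb5: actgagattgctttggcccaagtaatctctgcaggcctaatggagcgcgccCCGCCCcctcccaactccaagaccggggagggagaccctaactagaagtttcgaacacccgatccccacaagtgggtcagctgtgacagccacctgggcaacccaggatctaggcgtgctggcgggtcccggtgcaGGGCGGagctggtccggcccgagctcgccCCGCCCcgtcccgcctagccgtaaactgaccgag
Itgb1 held 1 GC box and 1 TEAD motif, Itgb5 held 3 GC boxes and Itgav held none of these letters. A GC box was present in 32.7% and GGAATG in 12.6% of all 32851 windows, either strand counted. None of the 3 windows held CCAAT, the letters TATAAA of the TATA box, the AP-1 motif TGANTCA or the E-box CACGTG, which were present in 33.8%, 12.4%, 6.75% and 6.02% of windows. The windows held 21, 18 and 18 CpG against a median of 6. A match of letters is a description and does not show binding.

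The collagen-binding subunits and Itga9, a receptor subunit for tenascin, were sparse in adult cells. Itga1 and Itga9 were detected in a larger share of pregnancy cells than of either adult set, and Itga2 in about as many as in the unmarked set. Itga1 (Entrez 109700, chr13:114958079-115101964, minus strand) ranged from 0 to 1697, 0 to 1043 and 0 to 793 CPM in the marked, unmarked and pregnancy sets, with medians of 0, 0 and 11.9. The highest cells were adult, but at equal depth a read was present in 24.7% (interval 15.8 to 35.5%), 31.0% (interval 19.5 to 44.5%) and 53.5% (interval 41.3 to 65.5%) of cells. Pregnancy lay above the marked interval and overlapped the unmarked one. The means of Itga1 were 52.7, 40.7 and 81.3 CPM, with log2 ratios of 0.54 and 0.85. An exon overlap of 685 bases with Gm49395 on the same strand may make its reads uncertain. Whether the annotation used for counting holds Gm49395 was not checked. The highest cell of Itga1 held 39.8% and 44.2% of the 2 adult sums against 13.7% in pregnancy. Its ratios without the highest cell of each set were 0.94 and 1.29.

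Itga9 (Entrez 104099, chr9:118606709-118901003, plus strand) had the same form. It ranged from 0 to 1368, 0 to 344 and 0 to 799 CPM with medians of 0, 0 and 8.20. At equal depth it was detected in 23.5% (interval 14.8 to 34.2%), 24.1% (interval 13.9 to 37.2%) and 47.9% (interval 35.9 to 60.1%) of cells, so that pregnancy lay above the marked interval and overlapped the unmarked one slightly. The means were 45.8, 28.9 and 69.6 CPM, and the log2 ratios 0.51 and 1.03. Itga2, next to Itga1 on chromosome 13, was detected at equal depth in 9.88% (interval 4.36 to 18.5%), 19.0% (interval 9.87 to 31.4%) and 19.7% (interval 11.2 to 30.9%) of cells, which overlapped. Its means of 11.3, 21.7 and 37.1 CPM were too low for a call. Its highest cell held 63.8% of the marked sum.

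Between sets a gene was called when its log2 ratio passed 1, that is 2-fold, and for pregnancy it had to do so against both adult sets. Among the 10 subunits, 8 reached a mean of 50 CPM in one of the sets and could be called. Itga9 did so through pregnancy alone and Itgb4 through the marked set alone, in each case the set with its highest mean. Between pregnancy and adult, Itgb4 could thus be called only lower and Itga9 only higher. In pregnancy 0 of the 8 were called higher, where 8.81% of all 5197 genes were, and 2 of the 8, Itgb4 and Itgb5, were called lower, where 5.95% were. The call of Itgb4 rested on its ratio of -1.004 against unmarked cells. That ratio was -0.80 without the highest cell of each set and -0.24 in cells with at least 100000 reads and 1500 genes, and the call was then lost. Within adult, 7 subunits could be called, Itga1 and Itgb4 through the marked set alone. Of these, 0 were called higher in unmarked cells and 1, Itgb4, was called lower, where 18.9% and 16.7% of 4578 genes were. These last shares, between sets that the labels give 1 name, are larger than those for pregnancy, which needed 2 ratios. Without regard to size, 6 of the 8 that could be called had both pregnancy ratios above 0 (75%), where 35.5% of the 5197 genes did. The 6 include Itga9, which could be called through pregnancy alone. Over all 10, with those below 50 CPM included, 7 did. The median over all 10 subunits was 0.39 over marked and 0.51 over unmarked cells.

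**Figure D3:**
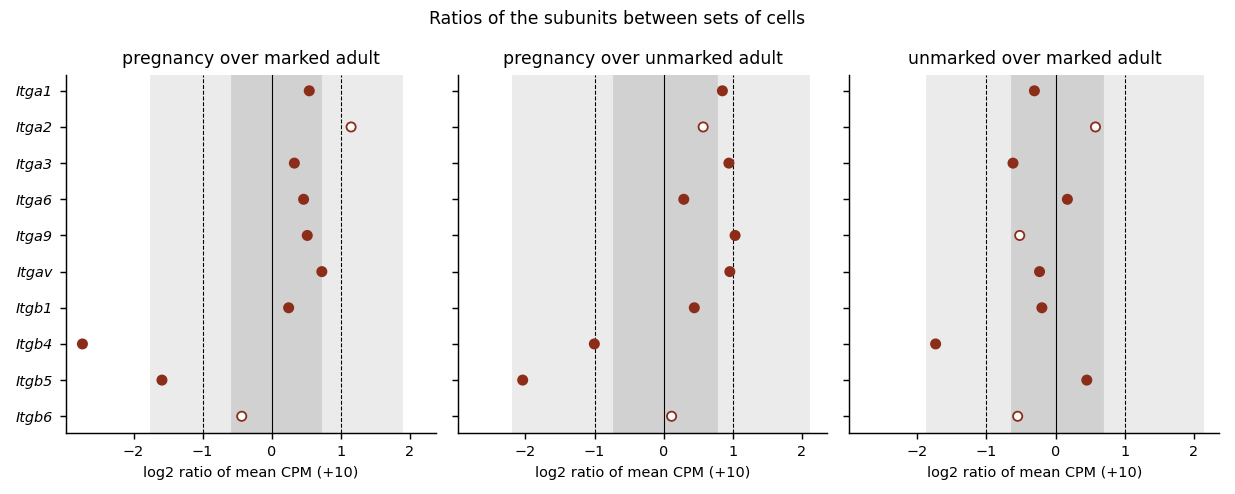
Log2 ratio of mean CPM, each with 10 CPM added, of every subunit for pregnancy over marked adult, pregnancy over unmarked adult and unmarked over marked adult; filled points could be called in that comparison, open points had means under 50 CPM in its sets, dark and light bands hold the middle 50% and 90% of 5197 genes, and dashed lines are the thresholds at 1 and -1. Itgb4 and Itgb5 lie at or past -1 in both pregnancy panels, and Itgb4 alone lies past -1 between the adult sets.

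The measure used mattered for the broad subunits, whose change was largest in proportion among their low cells but was not confined to them. When the mean of log2 values per cell replaced the log2 of the mean, Itga6 differed by 1.04 over marked and 1.20 over unmarked cells, Itgav by 1.56 and 1.97, and Itgb1 by 1.01 and 1.14. By that measure these 3 were called higher in pregnancy, where 10.5% of all genes were, and 0 were called lower, where 0.616% were. The median of all genes also moved, to 0.27 and 0.37. Relative to that median Itgav stood at 1.28 and 1.61 and kept its call, whereas Itga6, at 0.76 and 0.83, and Itgb1, at 0.74 and 0.77, lost theirs. With all reads of a cell in the total, mitochondrial reads included, the median gene stood at -0.12 and -0.04, and the ratios of Itgb1 were 0.06 and 0.38.

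Compared per length of exon, as RPKM, Itga6 and Itgb1 stood together at the top. Itgb1 had a mean of 201, 175 and 238 RPKM and Itga6 of 184, 208 and 254 RPKM in the marked, unmarked and pregnancy sets. Their order turned between the sets, with Itga6 over Itgb1 at 0.917, 1.19 and 1.07, so they were not told apart. Itgav followed among the alpha subunits with 46.4, 39.3 and 77.6 RPKM, ahead of Itga3 with 29.0, 18.2 and 36.8 RPKM. The remaining listed alpha subunits lay between 2.68 and 13.6 RPKM in every set. Itga8, an alpha subunit outside the list, had 6.77, 8.64 and 42.2 RPKM, above Itga3 in pregnancy. Among beta subunits Itgb5 came second with 33.8, 47.3 and 9.19 RPKM, and Itgb1 made up 79.3%, 76.4% and 94.2% of the beta sum. Over the listed subunits alone, the alpha sum was 278, 281 and 401 RPKM, while the beta sum was 254, 229 and 253 RPKM.

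**Figure D4:**
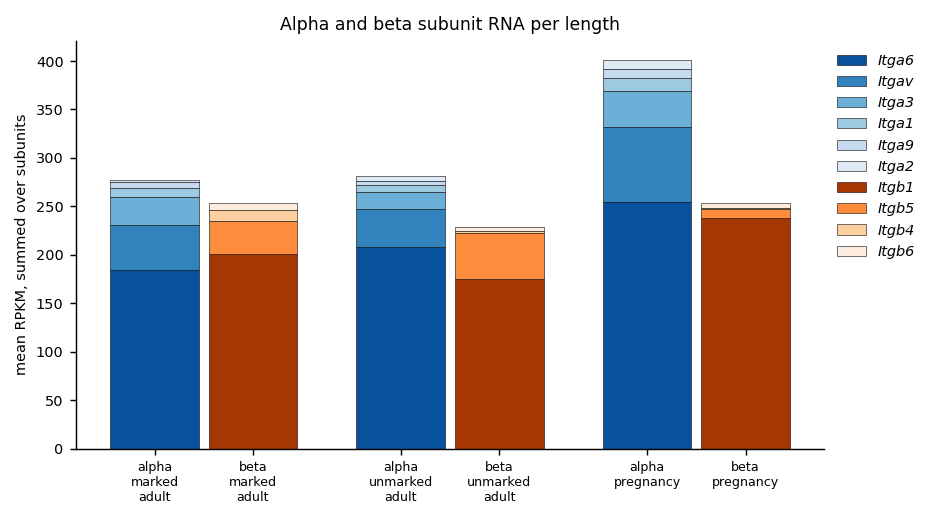
Mean RPKM of the alpha subunits and of the beta subunits, stacked, in marked adult, unmarked adult and pregnancy cells. Alpha RNA sums to 278, 281 and 401 RPKM and beta RNA to 254, 229 and 253 RPKM, and in pregnancy the beta bar is nearly all Itgb1.

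The ratio of the hemidesmosome pair differed most. Itga6 exceeded Itgb4 16.4-fold in marked, 93.0-fold in unmarked and 844-fold in pregnancy cells, the last resting on 24 reads of Itgb4. Itgav over Itgb5 was 1.37, 0.831 and 8.44, and 1.53, 1.61 and 14.9 when the highest cell of each gene and set was left out. Beta subunits outside the list did not enter this ratio. Of these, Itgb3 had means of 3.00, 35.9 and 48.9 CPM, and Itgb8 had means of 7.19, 12.8 and 0.267 CPM. In thinned cells both Itga6 and Itgb4 were detected in 27 of 81, 13 of 58 and 5 of 71 cells, and both Itga6 and Itgb1 in 65, 51 and 70. Nearly every cell with Itgb4 therefore also had Itga6, 27 of 29, 13 of 13 and 5 of 5, in sets where Itga6 was found in most cells. Over the cells of a set, the levels of the 2 members of a pair were weakly related at most. The Spearman correlation of Itga6 with Itgb4 was 0.04, 0.07 and -0.08, and that of Itga6 with Itgb1 was 0.20, 0.00 and 0.22, over 81, 58 and 71 cells that share a capture form and were read at unequal depth.

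Of the other 16 integrin subunits counted, 1 reached 50 CPM, through pregnancy alone. This was Itga8, a partner of Itgb1 that binds nephronectin, with means of 39.2, 49.96 and 244 CPM and log2 ratios of 2.37 and 2.08. It reached 100 CPM in 7.41% (interval 2.77 to 15.4%), 17.2% (interval 8.59 to 29.4%) and 53.5% (interval 41.3 to 65.5%) of cells, so that pregnancy overlapped neither adult set. The share of all genes with such a gap was not counted. The leukocyte subunits Itgal, Itgam, Itgax, Itgb2 and Itgb7 had means between 0 and 3.87 CPM. Of 20 focal adhesion genes, 16 could be called, 2 were higher in pregnancy (12.5%, beside 8.81% of all genes) and 0 were lower (beside 5.95%), so that the share was near that of all genes. The 2 were Lims1, an adaptor of integrin-linked kinase, with means of 117, 38.8 and 297 CPM, and Fermt2, an activator that binds beta tails, with means of 337, 204 and 693 CPM. Their log2 ratios were 1.27 and 2.65 for Lims1 and 1.02 and 1.72 for Fermt2. The other focal adhesion genes that could be called did not pass in both ratios.

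Genes whose levels followed a broad subunit from cell to cell were sought in each set among 2675 genes. The 3 with the highest value of the lowest Spearman correlation over the sets were Rictor, Qk and Naa15 for Itgav, Sf3a1, Sptbn1 and Tead1 for Itgb1, and Auts2, Igfbp3 and Pxdn for Itga6. That lowest correlation lay between 0.23, for Tead1 with Itgb1, and 0.30, for Rictor with Itgav, over 58 to 81 cells a set, and in counts this sparse such values are weak.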

How the data were processed

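Counts of read pairs were deposited by the authors for 312 cells, 1 cell per GEO sample, with no normalization and no molecular identifiers. Per the labels and the methods of the study, the authors aligned reads to mm10 with Subread 1.5.0 and counted them per Entrez gene with featureCounts, on the RefSeq annotation it carries. Whether counting used the strand is not given in the sources used here. A further count table of the whole series was not used here. The exon length of each gene came with the counts.

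A symbol was found for 25275 of 27179 gene IDs. The 1904 without one, which held 1.66% of reads, 15 mitochondrial and 124 ribosomal protein genes were left out, as the study did. Cells kept had at least 50000 remaining reads and 1000 genes, and total reads ranged from 41 to 529822 per cell before this filter. Doublets were not called. All 312 count profiles were distinct. CPM was scaled to the remaining reads of a cell and RPKM to exon length besides. CPM, shares and log2 ratios of mean CPM plus 10 were computed with Python 3.11.15, numpy 2.4.6, pandas 2.3.3 and scipy 1.17.1, and TMM factors with edgeR 4.0.16 in R 4.3.3. The pseudocount understates differences of low genes. The code for ratios and calls was tested on simulated data with known folds, which gives no support to any result.

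Groups were taken from titles. Since no animals are named, no test was made, and read pairs copied by PCR are not independent molecules, so that intervals are too narrow. The Clopper-Pearson method gave the intervals, and a share of 0 allows 3 counts. The subunits, gene lists, call rule and alternatives were chosen with earlier results of these data known. Genes named from other lists were those called in pregnancy, the 4 hemidesmosome genes, the leukocyte subunits, Itgb3 and Itgb8. The leukocyte subunits, Itgb3 and Itgb8 were chosen after their values were seen. Likeness was sought for subunits detected in at least 50% of thinned cells of every set, among genes detected in at least 25%. The genes most like Itga3 are not reported here. Alternatives covered the pseudocount, cell and gene filters, scaling, thinning, single cells and the averaging of cells. Gene starts and ends and promoter sequences were taken from RefSeq, and strands and exon overlaps from GENCODE M21.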

Additional observations from a re-analysis of the deposited data

Results flagged for a closer look

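Cells left out by the depth filter also held reads of the 10 subunits, and were used in no comparison. In 31 marked adult cells these reads made up 0.360% of assigned reads (interval 0.343 to 0.378%), against 0.239% in retained cells of that set. In 67 unmarked adult cells the share was 0.260% (interval 0.248 to 0.272%), against 0.226%. In 4 pregnancy cells it was 0.477% (interval 0.434 to 0.524%), against 0.304%. The part of low depth in these shares was not tested.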

How the results depend on the processing

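Of 330 log2 ratios of single subunits under 11 alternatives, 319 kept the sign reported. All 10 subunits kept it for pregnancy over marked cells, 9 for pregnancy over unmarked cells (the exception was Itgb6) and 7 within adult. The count of subunits called higher in pregnancy, 0 as reported, was 3 with the mean of log2 values (10.5% of all genes) and 1, Itga1, without cells over 20% mitochondrial reads (11% of all genes), an alternative added after seeing the data. The count called lower, 2 as reported, was 0 with a pseudocount of 100 CPM, with the mean of log2 values and without cells over 20% mitochondrial reads, where 0.77%, 0.616% and 7.88% of all genes were. It was 1, Itgb5, with at least 100000 reads and 1500 genes, summed reads with TMM factors, CPM of all reads, no highest cell, and no cells with 3 or more proliferation genes, where 4.75% to 7.47% of all genes were. Within adult, 1 subunit, Itgb5, was higher in unmarked cells with at least 100000 reads and 1500 genes, where 29 unmarked cells were left and 22.6% of all genes were higher. Lower in unmarked cells were 0 with a pseudocount of 100 CPM or the mean of log2 values (1.57% and 2.47% of all genes) and 2, Itga1 and Itgb4, with at least 100000 reads and 1500 genes (22.2%). The cause of these changes was not tested. The median of all genes for pregnancy over unmarked cells moved to 0.17 with the stricter cell filter and 0.25 without the highest cell.

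No paired analysis was possible because the numbers in the titles name cells, not animals, and the result comes from no test. Sets without named animals limit every comparison to these cells. At a median depth where 1 read is worth 4.34 to 9.87 CPM, a subunit with 0 reads in a cell cannot be called absent, and the sparse subunits rest on few cells.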
